A study of Homo sapiens with 24 samples.

Results

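Transcription elongation control was followed through 9 genes, HEXIM1, LARP7, MEPCE, CDK9, CCNT1, CCNT2, AFF4, ELL2 and CDK12. They were chosen by symbol, with earlier results of these data known, for their known roles in the release of paused RNA polymerase II or, for CDK12, in later elongation. All 9 were found among the 23354 genes of the read count table. RNA had been sequenced from 2 established human acute myeloid leukemia (AML) lines named MV4-11 and KG-1a and both labelled wild type (WT). The cells were left untreated, or were given 1 μM 8CA (8-chloro-adenosine) or 1 μM 8AA (8-amino-adenosine), for 8 h or for 24 h. The 12 groups of line, treatment and time had 2 libraries each, with letters A and B and 24 libraries in all. Both drugs are adenosine analogs. They differ by the substituent on the base, a chlorine atom in 8CA and an amino group in 8AA. The untreated libraries carry the hours of the treated ones only in their titles, and no label says whether the letters stand for separate cultures. The p-values therefore measure the spread between libraries, which may be technical.

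P-TEFb, the kinase CDK9 bound to cyclin T1 (CCNT1) or cyclin T2 (CCNT2), phosphorylates RNA polymerase II and the factors that hold it at the pause. Much of the P-TEFb of a cell is kept inactive in the 7SK ribonucleoprotein. There the MEPCE protein caps the 7SK RNA, LARP7 stabilises it and HEXIM1 inhibits the kinase. Active P-TEFb can be carried to genes by the super elongation complex, in which AFF4 is a scaffold and ELL2 an elongation factor. CDK12 is a related kinase that acts with cyclin K further into genes. In AML, super elongation complex subunits are known as fusion partners of KMT2A. MV4-11 is known to carry such a fusion, with AFF1.

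At 24 h, 8CA lowered HEXIM1 and raised CCNT1, CCNT2, AFF4 and CDK12 in both lines. 8AA moved few of the 9 genes. It raised HEXIM1 in KG-1a at 8 h and lowered CCNT1 in MV4-11 at 8 h. It raised LARP7 in KG-1a at 24 h. With 8CA at 24 h, ELL2 also fell in both lines, and CDK9 fell and LARP7 rose in KG-1a. All of these changes were below 2-fold, and all 9 genes passed the filter on low counts in each line. Of all tested genes, 43.9% in MV4-11 and 47.4% in KG-1a passed the test with 8CA at 24 h, and 29.1% and 51.9% with 8AA. With single libraries left out, 8CA calls at 24 h were lost for CCNT1 in MV4-11 and for AFF4, CDK9 and LARP7 in KG-1a. Those for CCNT2 and ELL2 were lost in both lines, and that of CCNT1 with 8AA in MV4-11 was lost too.

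The libraries held 18633963 to 24520078 counts each (median 21402883), and the test covered 12800 genes in MV4-11 and 12711 in KG-1a. Levels are given as CPM, read counts relative to the size of the library after TMM scaling over all 24 libraries. Replicates of the KG-1a group with 8AA at 24 h differed more than those of the other groups. The chi-square of their counts was 12.25 per degree of freedom, against 1.43 to 5.20 in the other 11 pairs. The lines were set against AML markers. MV4-11 had CD33, SPI1, FLT3 and MEIS1 at medians of 112.7, 258.0, 510.7 and 97.0 CPM, and CD34 at no more than 0.175 CPM. PTPRC, MPO and HOXA9 had medians of 113.8, 11.43 and 7.9 CPM in MV4-11. KG-1a had CD34 at a median of 396.8 CPM, and PTPRC, HOXA9 and SPI1 at 740.6, 26.32 and 6.49 CPM. In KG-1a CD33, MPO and FLT3 reached at most 1.02, 2.16 and 1.32 CPM and MEIS1 was at 0 in all 12 libraries. KG-1a also held the T cell transcripts CD3D, at 173.6 to 264.2 CPM, and CD3E, at 22.2 to 78.3 CPM. In MV4-11 both were at 0. In KG-1a the 8 markers of other cell types summed to 286.3 and 292.9 CPM untreated at 24 h and to 206.5 and 215.1 CPM with 8CA and 275.1 and 334.7 CPM with 8AA, nearly all of it CD3D and CD3E. Of these 8, 3 passed the filter on low counts. At 24 h, 1 of the 3 was called lower with 8CA (24.0% of all genes lower) and 1 higher with 8AA (25.4% higher). The 8 AML markers in KG-1a at 24 h summed to 1190 and 1191 CPM untreated. They summed to 1121 and 1144 CPM with 8CA and to 1385 and 1387 CPM with 8AA. The sum moved in MV4-11 at 24 h too. Untreated libraries there held 1081 and 1096 CPM, each 8CA library 1254 CPM, and the 8AA pair 1217 and 1247 CPM. Of 7 AML markers tested in MV4-11, 8CA had 2 lower and 4 higher (22.7% and 21.2% of all genes). 8AA had 0 lower and 4 higher (15.3% and 13.9%). The part of these marker shifts in the results of either line was not tested. In bulk RNA, a change in the share of cells that express a gene and a change in its RNA per cell cannot be told apart.

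In the coordinates of the count table, HEXIM1 lay at chr17:43224684-43229468 on the plus strand, where its length of 4.784 kb equals its span, so the table gives it no intron. LARP7 lay at chr4:113558120-113578748 and MEPCE at chr7:100026413-100031749. CDK9 lay at chr9:130548305-130553052, CCNT1 at chr12:49082241-49110781 and CCNT2 at chr2:135676392-135716915. AFF4 lay at chr5:132211071-132299354, ELL2 at chr5:95220802-95297775 and CDK12 at chr17:37617739-37690800. The submitters' processing notes name the builds hg19 and hg38 with no role. For 9 of the 9 genes the table's start differed from the RefSeq start in GRCh38, so the coordinates of the table are not those of GRCh38. LARP7 overlaps ZGRF1 and MEPCE overlaps ZCWPW1 on the opposite strand, and strand use in counting is not given in the sources used here. Their counts, and those of CCNT2, which shares its span with MIR1244-2, may therefore hold reads of the neighbour.

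Promoter sequence is shown for 2 genes that fell and 2 that rose with 8CA at 24 h in KG-1a, HEXIM1 and CDK9 against AFF4 and CDK12, so that the upstream bases of genes moving in opposite directions can be read side by side. Each line holds the 250 bases before the RefSeq start in GRCh38.p14, on the strand of the gene, at chr17:45148225-45148474 (plus strand), chr9:127785784-127786033 (plus strand), chr5:132963635-132963884 (minus strand) and chr17:39461236-39461485 (plus strand). Capitals mark 5 promoter motifs searched on both strands, TATAAA (the TATA box), CACGTG (an E-box), CCAAT (a box known to bind NF-Y), GGGCGG (the GC box) and CGGAAG (an ETS motif).
HEXIM1: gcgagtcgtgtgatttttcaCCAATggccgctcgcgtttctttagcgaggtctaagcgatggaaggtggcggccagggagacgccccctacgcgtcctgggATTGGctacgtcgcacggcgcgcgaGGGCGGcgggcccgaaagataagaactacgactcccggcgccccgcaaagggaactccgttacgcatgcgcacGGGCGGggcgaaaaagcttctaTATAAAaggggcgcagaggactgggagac
CDK9: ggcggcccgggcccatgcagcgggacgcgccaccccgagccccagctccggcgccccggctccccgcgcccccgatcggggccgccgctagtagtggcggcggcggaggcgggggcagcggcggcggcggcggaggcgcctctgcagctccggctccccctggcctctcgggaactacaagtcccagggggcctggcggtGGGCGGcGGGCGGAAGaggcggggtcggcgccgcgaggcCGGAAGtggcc
AFF4: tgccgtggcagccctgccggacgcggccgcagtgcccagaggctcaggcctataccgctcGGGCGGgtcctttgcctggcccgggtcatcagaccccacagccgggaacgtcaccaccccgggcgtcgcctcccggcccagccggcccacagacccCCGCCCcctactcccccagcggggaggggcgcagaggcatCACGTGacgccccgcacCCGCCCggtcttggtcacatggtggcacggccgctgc
CDK12: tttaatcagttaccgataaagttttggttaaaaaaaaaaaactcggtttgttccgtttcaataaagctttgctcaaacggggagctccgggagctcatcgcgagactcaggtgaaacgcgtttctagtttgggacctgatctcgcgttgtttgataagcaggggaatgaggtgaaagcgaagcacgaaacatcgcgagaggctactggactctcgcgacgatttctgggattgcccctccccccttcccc
HEXIM1 held TATAAA beginning 29 bases before its start, and it was the only window of a member to hold it, among 12 windows of 8 members. Of 35116 RefSeq windows of this length, 10.7% held TATAAA. HEXIM1 also held 2 GC boxes and 2 CCAAT boxes. CDK9 held 2 GC boxes and 2 ETS motifs, of which the first ETS motif overlaps a GC box. AFF4 held 3 GC boxes and an E-box, and CDK12 held none of the 5 motifs. Over all windows, 42.6% held a GC box, 32.01% a CCAAT box, 16.5% an ETS motif and 6.34% an E-box. The bases just after the RefSeq start occurred in a GENCODE transcript of the gene for CDK9 and AFF4. For HEXIM1 and CDK12 they did not, so positions there rest on the RefSeq start alone. A match of letters is a description and no evidence of a bound factor.

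HEXIM1, the inhibitor of P-TEFb, was read in every group. In untreated MV4-11 cells it stood at 70.3 and 60.2 CPM at 8 h and at 58.1 and 59.7 CPM at 24 h. With 8CA it stood at 58.6 and 59.7 CPM at 8 h and at 46.5 and 43.5 CPM at 24 h. With 8AA it stood at 67.3 and 65.2 CPM at 8 h and at 52.2 and 53.2 CPM at 24 h. Both 8CA libraries at 24 h lay below all other MV4-11 libraries. In untreated KG-1a cells HEXIM1 stood at 48.8 and 51.7 CPM at 8 h and at 44.2 and 45.8 CPM at 24 h. With 8CA it stood at 45.1 and 47.8 CPM and then at 36.3 and 38.0 CPM. With 8AA it stood at 62.5 and 64.2 CPM and then at 48.8 and 46.7 CPM. In KG-1a the 8AA libraries at 8 h were thus the highest of the line and the 8CA libraries at 24 h the lowest.

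**Figure D1:**
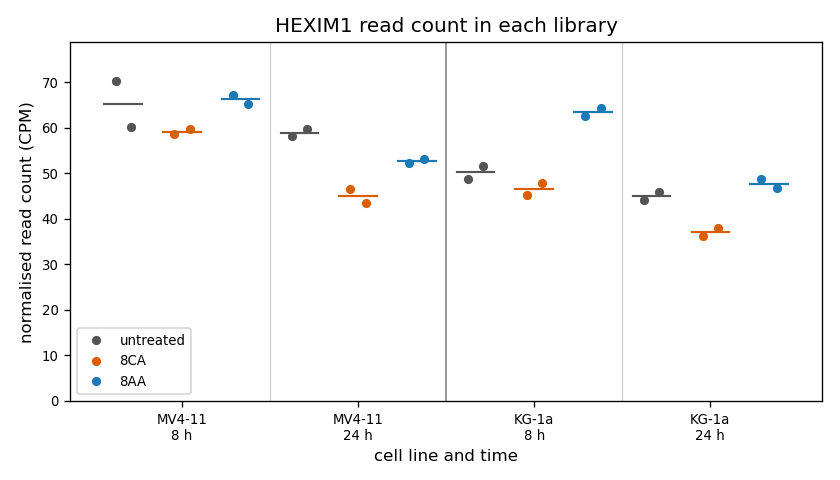
HEXIM1 in each of the 24 libraries, in CPM after TMM scaling (vertical axis from 0), by cell line and time. Points are libraries and short lines the mean of the 2 libraries of a group. In each line the 8CA libraries at 24 h are the lowest, and in KG-1a the 8AA libraries at 8 h, at 62.5 and 64.2 CPM, are the highest.

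At 24 h, 8CA lowered HEXIM1 in both lines. In MV4-11 the log2 fold change was -0.41 ± 0.07 (SE; edgeR adjusted p = 0.00018) and HEXIM1 fell by 24.7%. In KG-1a the log2 fold change was -0.28 ± 0.06 (edgeR adjusted p = 0.00176) and HEXIM1 fell by 17.4%. The fall did not differ detectably between the lines, the difference being -0.11 with a 95% interval from -0.30 to 0.08 (edgeR adjusted p = 0.54). With 8AA, HEXIM1 rose in KG-1a at 8 h by 0.34 ± 0.06 on the log2 scale (edgeR adjusted p = 0.000308), which is 27.0% higher. In MV4-11 at 8 h its value with 8AA was -0.01, with a 95% interval from -0.15 to 0.13. At 24 h the values with 8AA were -0.18 in MV4-11 (edgeR adjusted p = 0.0547) and 0.09 in KG-1a (edgeR adjusted p = 0.24), and neither passed the threshold. The MV4-11 value passed with 3 of 13 other settings. In KG-1a the value at 24 h came to 0.18 by library size alone (edgeR adjusted p = 0.0172) and to 0.16 by upper quartile scaling (edgeR adjusted p = 0.0338).

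The changes were counted over the 9 genes against each untreated group, which both drugs share as control, beside the share of all tested genes that passed the same threshold, an adjusted p of 0.05. At 8 h, 8CA changed 0 of the 9 genes in MV4-11, where 10.4% of all genes passed, and 0 of the 9 in KG-1a, where 0.881% passed. At an unadjusted p of 0.05, edgeR counted HEXIM1 and LARP7 in MV4-11 and CDK9 and CCNT1 in KG-1a, and DESeq2 called 0 of the 9 in each line. HEXIM1 passed in MV4-11 at 8 h once untreated replicate B was left out (-0.27, edgeR adjusted p = 0.0283). 8AA at 8 h changed 1 of the 9 in MV4-11 (29.2% of all genes) and 1 of the 9 in KG-1a (34.7%). At 24 h, 8CA changed 6 of the 9 in MV4-11 (43.9% of all genes), 2 lower (22.7%) and 4 higher (21.2%), and 8 of the 9 in KG-1a (47.4%), 3 lower (24.0%) and 5 higher (23.4%). At 24 h, 8AA changed 0 of the 9 in MV4-11 (29.1%) and 1 of the 9 in KG-1a (51.9%). In MV4-11 edgeR counted HEXIM1 and CCNT1 there at an unadjusted p of 0.05, and DESeq2 called 0. In KG-1a the count was 3 without 8AA replicate A, with AFF4 and CCNT2 added, and at 8 h it was 2 without untreated replicate A, with ELL2 added at -0.27. The median change of the 9 genes with 8CA at 24 h was 0.05 in MV4-11 and 0.17 in KG-1a on the log2 scale, against 0.00 and 0.01 over all tested genes. Treated and untreated libraries also lay apart where 0 of the 9 genes passed. With 8AA at 24 h in MV4-11, 4 genes lay wholly below the untreated libraries and 3 wholly above. The same numbers held for 8CA at 8 h in KG-1a. With 2 libraries a group, a lack of overlap is therefore a description and no support for a call. Its share over all genes was not counted. The counts with 8CA at 24 h moved with single libraries. In MV4-11 the count came to 3 without 8CA replicate A, untreated replicate A or untreated replicate B. In KG-1a it came to 4 without 8CA replicate B or untreated replicate B and to 5 without untreated replicate A, and it stayed at 8 in a fit without the 2 divergent 8AA libraries.

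**Figure D2:**
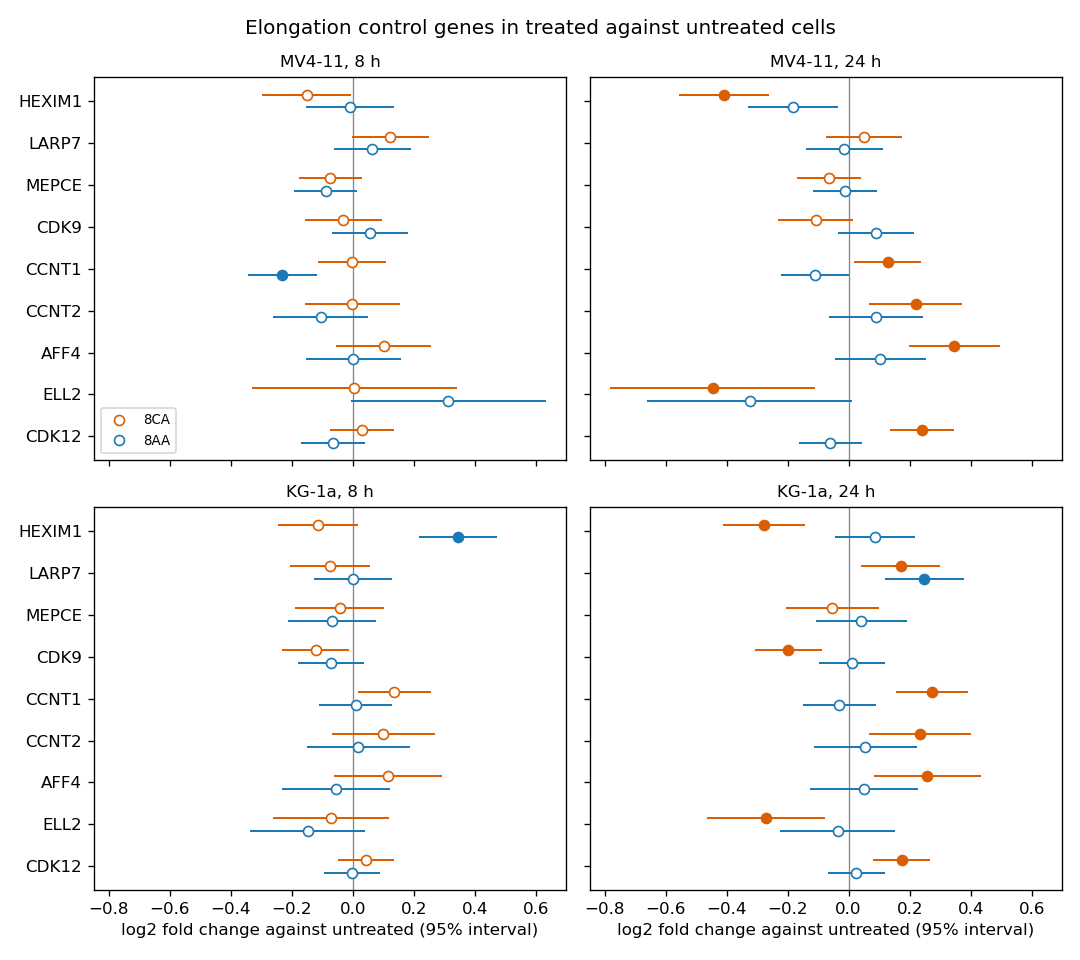
Log2 fold change of the 9 genes against the untreated group of the same line and time (horizontal axis), with its 95% interval, for 8CA and 8AA. Filled points passed an adjusted p of 0.05 in edgeR, open points did not. With 8CA at 24 h, HEXIM1 and ELL2 lie below 0 and CCNT1, CCNT2, AFF4 and CDK12 above 0 in both lines.

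Of the other proteins of the 7SK particle, LARP7 rose in KG-1a and MEPCE passed the test with neither drug. LARP7, which binds and protects the 7SK RNA, stood at 47.2 and 43.4 CPM in untreated KG-1a at 24 h, at 50.9 and 51.0 CPM with 8CA and at 52.8 and 54.8 CPM with 8AA. The treated libraries did not overlap the untreated ones. The rise with 8AA was 0.25 ± 0.06 (log2; edgeR adjusted p = 0.00227) and passed in all 14 other settings. The rise with 8CA was 0.17 ± 0.06 (edgeR adjusted p = 0.0268), and it was lost by the DESeq2 Wald test (adjusted p = 0.0808), without the filter on low counts, with the 6 libraries of that time alone and without either 8CA library or untreated replicate B. In MV4-11 LARP7 lay between 63.0 and 78.1 CPM in all 12 libraries. MEPCE, the enzyme that caps the 7SK RNA, lay between 137.8 and 167.7 CPM in MV4-11 and between 33.0 and 42.0 CPM in KG-1a. Its changes with drug lay between -0.09 and 0.04 on the log2 scale. HEXIM2, a paralog of HEXIM1 with the same role, was low. It stood at 4.01 and 5.80 CPM in untreated MV4-11 at 24 h and at 6.53 and 7.62 CPM with 8AA (log2 0.50, edgeR adjusted p = 0.029). In KG-1a at 24 h it stood at 1.36 and 2.35 CPM untreated and at 3.44 and 3.12 CPM with 8AA (log2 0.84, edgeR adjusted p = 0.0058). HEXIM2 thus rose with 8AA in both lines at 24 h, and with 8CA its values of 0.16 and 0.27 did not pass. It was also called higher with 8AA at 8 h in MV4-11. Other settings were not tried for HEXIM2. Of the 5 listed parts of the particle, 4 were in the table, and the 7SK RNA itself (RN7SK) was not analysed here.

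The cyclins of P-TEFb rose with 8CA at 24 h, and the kinase did not. CCNT1 stood at 141.1 and 139.3 CPM in untreated MV4-11 at 24 h, at 156.5 and 154.2 CPM with 8CA and at 131.1 and 132.4 CPM with 8AA. In KG-1a it stood at 129.2 and 121.0 CPM untreated, at 150.1 and 152.0 CPM with 8CA and at 115.6 and 129.5 CPM with 8AA. The 8CA libraries lay above the others of their line and time in both lines. The rise was 0.27 ± 0.05 in KG-1a (log2; edgeR adjusted p = 0.000705) and passed in all 14 other settings. In MV4-11 it was 0.13 ± 0.05 (edgeR adjusted p = 0.0488), and it was lost without any 1 of the 4 libraries compared and by the DESeq2 Wald test (adjusted p = 0.0878). With 8AA at 8 h, CCNT1 stood at 116.2 and 108.4 CPM in MV4-11 against 127.5 and 130.4 CPM untreated, a fall of 14.7% (log2 -0.23 ± 0.05, edgeR adjusted p = 0.00326). Without 8AA replicate B that fall was -0.17 (edgeR adjusted p = 0.0511).

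CCNT2 stood at 65.9 and 68.8 CPM in untreated MV4-11 at 24 h and at 82.8 and 76.1 CPM with 8CA. In KG-1a at 24 h it stood at 88.0 and 83.9 CPM untreated and at 98.5 and 103.4 CPM with 8CA. The groups did not overlap in either line. The rises were 0.22 ± 0.07 (log2; edgeR adjusted p = 0.019) and 0.23 ± 0.08 (edgeR adjusted p = 0.0209), and each was lost when 1 of 3 libraries was left out, namely 8CA replicate A or either untreated replicate in MV4-11 and 8CA replicate B or either untreated replicate in KG-1a. With 8AA, CCNT2 did not pass in any of the 4 comparisons. CDK9, the kinase subunit, stood at 116.9 and 122.9 CPM in untreated KG-1a at 24 h, at 105.0 and 103.8 CPM with 8CA and at 125.0 and 116.3 CPM with 8AA. At 8 h CDK9 had stood at 103.7 and 101.0 CPM with 8CA, against 110.7 and 112.2 CPM untreated. At 24 h the 8CA libraries lay below the others of that time, though not below those with 8CA at 8 h. The fall of 12.8% (log2 -0.20 ± 0.05, edgeR adjusted p = 0.00405) was lost without untreated replicate B (-0.16, edgeR adjusted p = 0.0561). In MV4-11 at 24 h CDK9 stood at 61.5 and 61.8 CPM untreated and at 56.5 and 59.5 CPM with 8CA, and its change of -0.11, with a 95% interval from -0.23 to 0.01, did not pass.

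**Figure D3:**
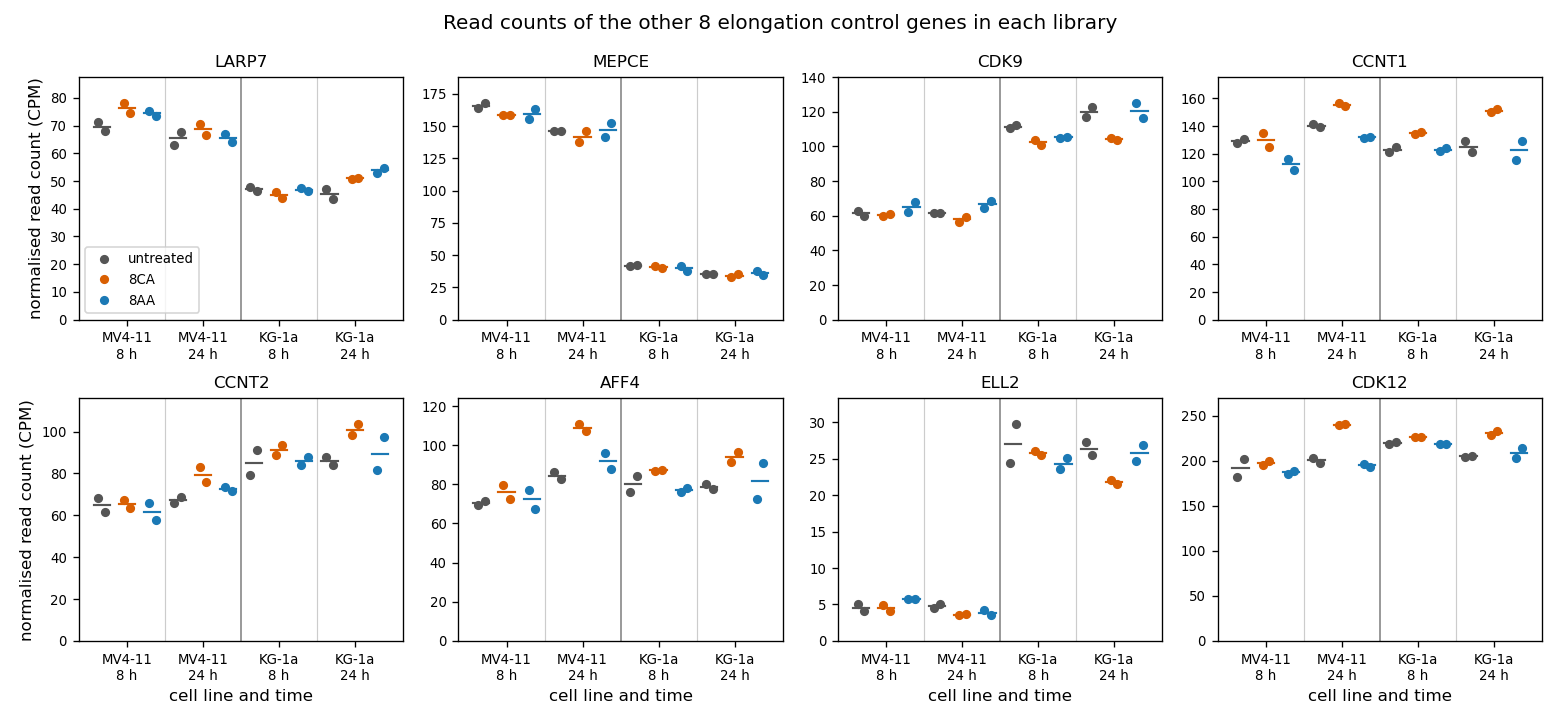
The other 8 genes in each of the 24 libraries, in CPM after TMM scaling (vertical axes from 0, each on its own scale), by cell line and time. Points are libraries and short lines group means. CCNT1, CCNT2, AFF4 and CDK12 are highest with 8CA at 24 h in each line. MEPCE, CDK9 and ELL2, and less so LARP7 and CCNT2, differ more between the lines than between treatments.

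In the super elongation complex, AFF4 rose and ELL2 fell with 8CA at 24 h. AFF4, the scaffold, stood at 86.4 and 82.5 CPM in untreated MV4-11 at 24 h and at 110.6 and 107.0 CPM with 8CA. This rise of 27.2% was the largest increase among the 9 genes (log2 0.35 ± 0.07, edgeR adjusted p = 0.000721) and passed in all 13 other settings. In KG-1a AFF4 stood at 80.0 and 77.5 CPM untreated and at 91.7 and 96.4 CPM with 8CA (log2 0.26 ± 0.08, edgeR adjusted p = 0.0161), and the call was lost without 8CA replicate B or either untreated replicate. With 8AA in KG-1a at 24 h its 2 libraries, at 72.4 and 91.2 CPM, lay on both sides of the untreated pair. Without 8AA replicate A the 8AA change was 0.21 (edgeR adjusted p = 0.00401), against 0.05 with both. ELL2, an elongation factor of the complex, was the least abundant of the 9. In MV4-11 at 24 h it stood at 4.58 and 5.06 CPM untreated and at 3.54 and 3.65 CPM with 8CA (log2 -0.45 ± 0.16, edgeR adjusted p = 0.0304). In KG-1a it stood at 27.2 and 25.5 CPM untreated and at 22.1 and 21.5 CPM with 8CA (log2 -0.27 ± 0.09, edgeR adjusted p = 0.0205). The groups did not overlap. The MV4-11 call was lost without any 1 of the 4 libraries and by the DESeq2 Wald test (adjusted p = 0.146) and by library size alone (edgeR adjusted p = 0.0549), and the KG-1a call without either 8CA library or untreated replicate A.

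CDK12, which keeps polymerase productive along long genes, rose with 8CA at 24 h in both lines. It stood at 202.9 and 198.0 CPM in untreated MV4-11 at 24 h, at 240.0 and 240.3 CPM with 8CA and at 196.6 and 193.5 CPM with 8AA. In KG-1a it stood at 204.4 and 205.3 CPM untreated, at 228.2 and 233.2 CPM with 8CA and at 203.0 and 213.9 CPM with 8AA. In both lines the 8CA libraries lay above those of the other groups at that time. The rises were 0.24 ± 0.05 (log2; edgeR adjusted p = 0.000705) and 0.17 ± 0.04 (edgeR adjusted p = 0.00305) and passed in all other settings, 13 in MV4-11 and 14 in KG-1a.

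The analogs were compared directly at the same dose and time, in 4 comparisons. At 24 h in MV4-11, 5 of the 9 genes differed between 8AA and 8CA, with 21.2% of all genes past the threshold, 11.7% higher and 9.48% lower with 8AA. HEXIM1 (0.23 ± 0.07, edgeR adjusted p = 0.0282) and CDK9 (0.20 ± 0.06, edgeR adjusted p = 0.0204) were higher with 8AA on the log2 scale. CCNT1 (-0.24 ± 0.05, edgeR adjusted p = 0.00338), AFF4 (-0.24 ± 0.07, edgeR adjusted p = 0.0187) and CDK12 (-0.30 ± 0.05, edgeR adjusted p = 0.000384) were lower. At 24 h in KG-1a, 6 of the 9 differed, with 42.0% of all genes past the threshold, 20.3% higher and 21.7% lower. HEXIM1 (0.36 ± 0.06, edgeR adjusted p = 0.000204), CDK9 (0.21 ± 0.05, edgeR adjusted p = 0.00307) and ELL2 (0.23 ± 0.09, edgeR adjusted p = 0.0427) were higher with 8AA. CCNT1 (-0.30 ± 0.05, edgeR adjusted p = 0.000353), AFF4 (-0.21 ± 0.08, edgeR adjusted p = 0.05) and CDK12 (-0.15 ± 0.04, edgeR adjusted p = 0.00968) were lower. The amino analog thus left HEXIM1 and CDK9 higher, and CCNT1, AFF4 and CDK12 lower, than the chloro analog in both lines.

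These differences were not equally firm. Those of CCNT1 in both lines, of CDK12 in MV4-11 and of HEXIM1 and CDK9 in KG-1a passed in all 13 other settings. HEXIM1 in MV4-11 passed in 8 of 13 and was lost without any 1 of the 4 libraries compared, at values from 0.17 to 0.27. AFF4 in KG-1a came to -0.05 without 8AA replicate A (edgeR adjusted p = 0.54) and lost its call in 8 of 13 settings. The count came to 3 in KG-1a without 8CA replicate B. In MV4-11 it came to 2 without 8AA replicate B or 8CA replicate A and to 3 without 8CA replicate B. Genes that did not pass at 24 h could still differ. The interval of the difference ran from -0.34 to -0.02 for CCNT2 in KG-1a and from -0.05 to 0.24 for MEPCE.

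At 8 h the analogs differed in 1 of the 9 genes in each line. In MV4-11, where 6.66% of all genes passed, CCNT1 was lower with 8AA than with 8CA by 14.7% (log2 -0.23 ± 0.05, edgeR adjusted p = 0.0143). That call was lost without 8AA replicate B or 8CA replicate A, at -0.16 in both cases, and the count was then 0. In KG-1a, where 30.4% passed, HEXIM1 was 37.3% higher with 8AA (log2 0.46 ± 0.06, edgeR adjusted p = 3.64e-05), the largest difference of the 9 genes between the analogs. It passed in all 14 other settings. A fit of KG-1a without the 2 divergent libraries also called CCNT1 (-0.13) and AFF4 (-0.17) lower with 8AA at 8 h, which makes 3 of the 9.

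Between the times and between the lines, few changes with drug differed by a test of the difference itself. With 8CA, CDK12 in MV4-11 (16.3% of all genes called) rose more at 24 h than at 8 h, by 0.21 ± 0.07 (log2; edgeR adjusted p = 0.0437), and LARP7 in KG-1a (23.9%) by 0.24 ± 0.08 (edgeR adjusted p = 0.0472). With 8AA in KG-1a (18.3%) the change of HEXIM1 was lower at 24 h than at 8 h, by -0.26 ± 0.08 (edgeR adjusted p = 0.043), and in MV4-11 0 of the 9 genes passed (4.63% of all genes, with ELL2, at -0.64, past an unadjusted p of 0.05 in edgeR and 0 genes called by DESeq2). Between the lines, the change of HEXIM1 with 8AA at 8 h was lower in MV4-11 than in KG-1a by -0.31 ± 0.09 (edgeR adjusted p = 0.0226; 11.1% of all genes called). The change of LARP7 with 8AA at 24 h was also lower in MV4-11, by -0.24 ± 0.08 (edgeR adjusted p = 0.0313; 22.3%). The change of HEXIM1 with 8AA at 24 h, -0.25 between the lines, did not pass (edgeR adjusted p = 0.0522) and passed in 6 of 15 other settings. With 8CA, 0 of the 9 genes differed between the lines at 8 h (1.15%) or at 24 h (11.2%) by edgeR or DESeq2. At an unadjusted p of 0.05, edgeR counted LARP7 at 8 h and 0 genes at 24 h. All 5 of these calls were lost when single libraries were left out.

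The untreated levels set the scale of these changes. Per kb of the length given in the table, CDK9 was the highest of the 9 in KG-1a, at 46.9 ± 2.2 CPM per kb (SD, n = 4 libraries, both times), and MEPCE in MV4-11, at 47.6 ± 3.5. In MV4-11 LARP7 (25.6), CDK9 (24.95) and CDK12 (23.7) followed, each overlapping the next, and then CCNT1 (19.03), HEXIM1 (12.98), CCNT2 (9.04), AFF4 (7.51) and ELL2 (0.776), none of which overlapped the next. In KG-1a CDK12 (25.7) came after CDK9, then LARP7 (17.6) and CCNT1 (17.5), which overlapped, MEPCE (11.8) and CCNT2 (11.7), which overlapped, HEXIM1 (9.96), AFF4 (7.71) and ELL2 (4.43).

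**Figure D4:**
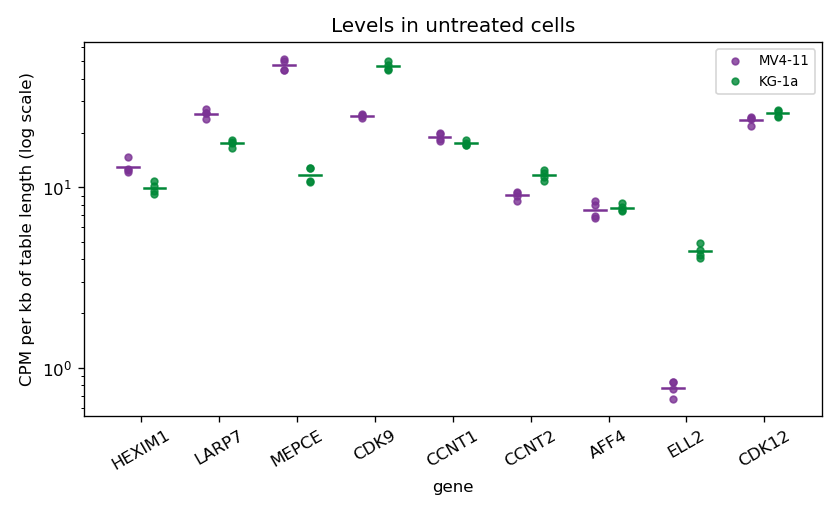
Levels of the 9 genes in untreated cells, in CPM per kb of table length on a log axis. Points are the 4 untreated libraries of a line and short lines their mean. MEPCE is higher in MV4-11, CDK9 and ELL2 are higher in KG-1a, and the other 6 genes lie closer together.

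The lines differed in 8 of the 9 genes at 8 h and in 7 of the 9 at 24 h, where 82.2% and 82.0% of all genes differed. By library size alone the median of all genes moved by -0.11 at 24 h. MEPCE was 1.98 ± 0.06 higher in MV4-11 at 8 h on the log2 scale (edgeR adjusted p = 3.92e-20) and 2.05 ± 0.06 at 24 h. ELL2 was lower in MV4-11 by -2.58 ± 0.12 and -2.45 ± 0.11, and CDK9 by -0.86 ± 0.05 and -0.96 ± 0.05. LARP7 and HEXIM1 were higher in MV4-11 at both times, by 0.56 and 0.53 and by 0.37 and 0.39. CCNT2 was lower at both, by -0.39 and -0.35. AFF4 (-0.19) and CDK12 (-0.20) passed at 8 h and CCNT1 (0.16) at 24 h. The AFF4 call was lost in 8 of 11 other settings and the CCNT1 call by library size alone (0.06) and without KG-1a untreated replicate B (0.12). Between 8 h and 24 h, untreated MV4-11 cells had 2 of the 9 genes past the threshold (5.54% of all genes), MEPCE at -0.18 (edgeR adjusted p = 0.0371) and AFF4 at 0.26 (edgeR adjusted p = 0.0439), each lost without any 1 of the 4 libraries. Untreated KG-1a cells had 0 of the 9 (4.45%), and at an unadjusted p of 0.05 edgeR counted HEXIM1, MEPCE and CDK9, while DESeq2 called 0.

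Across the 24 libraries, with each gene centred within its line, CCNT1, CCNT2, AFF4 and CDK12 varied together, with Pearson r from 0.64 to 0.90 for their 6 pairs. HEXIM1 had r from -0.76 to -0.60 with these 4 genes. The points share libraries, groups and depth, so these values are a description. Of 11485 genes, those most like HEXIM1 were ABCB10 (r = 0.95), HNRNPR (0.91), CBX1 (0.91), DSTN (0.91) and UQCRC1 (0.91). By rank correlation 0 of these 5 were among the top 5, although their Spearman rho was 0.84 to 0.88. The genes most like AFF4 were SCAF11 (0.97) and TLK1 (0.95), and TLK1 (0.93) with TNKS2 (0.92) were also those most like CCNT2. For CCNT1 they were PIBF1 (0.92) and ZBTB21 (0.91), for CDK12 PHF2 (0.90) and STAG1 (0.89), for MEPCE BRMS1 (0.89) and LSM2 (0.89), for CDK9 SASH3 (0.87) and PADI2 (0.87), for ELL2 WASF1 (0.85) and NUCKS1 (0.83), and for LARP7 TNFAIP8L1 (0.81) and IQGAP3 (0.81).

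Of the 55 other listed genes of elongation control, 54 were tested. With 8CA at 24 h, 14 were lower and 7 higher in MV4-11, which is 25.9% lower, against 22.7% of all tested genes, with 21.2% of all genes higher. In KG-1a 15 were lower and 12 higher, or 27.8% and 22.2%, against 24.0% and 23.4% of all genes, so the shares lower in both lines and the share higher in KG-1a were near those of all genes. With 8AA at 24 h, 14 were lower and 3 higher in MV4-11, or 25.9% and 5.56%, against 15.3% and 13.9% of all genes. In KG-1a 23 were lower and 7 higher, the lower share being 42.6% against 26.6% of all genes, while 25.4% of all genes were higher. At 8 h, 8AA gave 15 lower and 2 higher in each line, or 27.8% and 3.70%, where all genes gave 15.6% and 13.6% for MV4-11, and 18.0% and 16.7% for KG-1a. At 8 h, 8CA gave 4 lower in MV4-11 (7.41%, against 5.77% of all genes) and 0 in KG-1a. The median change with 8AA at 24 h was -0.08 in MV4-11 and -0.12 in KG-1a on the log2 scale, against 0.00 and 0.01 over all tested genes. The difference between the list and all genes was not tested.

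By a rule of size and of passing in the same direction in at least 3 of the 4 comparisons at 24 h, DDX21, SRSF2, SSRP1, WDR61 and INTS7 were named. Other settings were not tried for these genes. DDX21, a helicase that helps to release P-TEFb from the 7SK particle, fell in all 4. In KG-1a at 24 h it stood at 539.7 and 530.5 CPM untreated and at 234.0 and 236.3 CPM in the divergent pair with 8AA (log2 -1.18, edgeR adjusted p = 2.18e-11). With 8CA it fell by 0.15 there (edgeR adjusted p = 0.00567). At 8 h it fell with 8AA in both lines, by 0.63 in MV4-11 and by 0.84 in KG-1a. SRSF2, a splicing factor that also acts in P-TEFb release, fell in all 4, by 0.22 to 0.66. SSRP1, a subunit of the histone chaperone FACT, fell in all 4, by 0.25 to 0.51. WDR61, a subunit of the PAF complex, fell with 8CA in MV4-11 and with both drugs in KG-1a. INTS7, a subunit of Integrator, rose in the same 3 comparisons, by 0.19 to 0.36.

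In the super elongation complex, MLLT1 fell with both drugs in KG-1a at 24 h, by 0.28 and 0.47, and AFF1 rose in MV4-11 at 24 h by 0.21 with 8CA and 0.24 with 8AA. Reads of the KMT2A fusion can fall on the AFF1 row of MV4-11. The 9 listed genes of the complex include AFF4 and ELL2. In KG-1a at 24 h, 2 of the 9 were lower and 2 higher with each drug. Of all genes, 24.0% were lower and 23.4% higher there with 8CA, and 26.6% and 25.4% with 8AA. In MV4-11 at 24 h, 2 were lower and 2 higher with 8CA (22.7% and 21.2%) and 1 was higher with 8AA (13.9%). CDK13, the paralog of CDK12, rose in KG-1a at 24 h with both drugs, by 0.22 and 0.23. Among 6 short-lived transcripts, 3 fell with 8AA at 8 h in KG-1a, where 18.0% of all genes were called lower. In MV4-11 2 fell and 1 rose, where 15.6% were called lower and 13.6% higher. At 24 h with 8AA, 2 fell and 1 rose in MV4-11 (15.3% and 13.9% of all genes). In KG-1a 2 fell and 2 rose (26.6% and 25.4%). 8CA at 24 h gave 1 lower and 2 higher in MV4-11 (22.7% and 21.2%) and 1 lower and 3 higher in KG-1a (24.0% and 23.4%). MYC stood at 508.8 and 486.1 CPM untreated in KG-1a at 8 h and at 273.7 and 254.2 CPM with 8AA (log2 -0.90, edgeR adjusted p = 5.01e-08). With 8CA at 24 h, MYC rose by 0.34 in MV4-11 (edgeR adjusted p = 2.36e-05) and by 0.31 in KG-1a (edgeR adjusted p = 0.000524). MCL1 did not pass with either drug at 8 h in either line.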

How the data were processed

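RNA of 24 libraries from MV4-11 and KG-1a cells was sequenced, 2 libraries per group. The authors deposited raw counts, the number of reads counted on each gene, not normalized. The submitters' processing notes name Trimmomatic, STAR 2.6.0, HTSeq 0.11.1 and edgeR, and the builds hg19 and hg38, with no role or order. The sources used here do not give counting options or strand use. All 24 count columns were matched to samples by title, and 0 columns of per-sample values were left over. The 9 members and the other gene lists were chosen with earlier results of these data known.

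From the counts, genes were filtered with filterByExpr (minimum count 10), libraries scaled by TMM, and edgeR 4.0.16 in R 4.3.3 fitted by quasi-likelihood to the 12 libraries of each line, with 1 coefficient per group. Line contrasts used all 24 libraries and 14055 genes. Tests were two-sided, adjusted by Benjamini-Hochberg across every tested gene, with a threshold of 0.05 and 95% intervals. A chi-square over genes with 20 or more reads in a replicate pair showed every pair to differ beyond sampling noise. Likeness used log2 of CPM plus 0.5. The edgeR steps were checked on simulated data.

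All 9 members could be named in every comparison. Of the other listed elongation genes, up to 4 that fell most and up to 4 that rose most at 24 h were named, by mean log2 fold change among those passing in the same direction in at least 3 of 4 comparisons. Genes of the 7SK and super elongation lists and 6 short-lived transcripts could also be named. CDK13 was named outside this rule, after its values were seen. Values of 1 other listed gene are not reported here. The 5 genes most like HEXIM1, and the 2 most like each other member, were named by Pearson r. Alternatives were other scalings, filters and sets of libraries, DESeq2 1.42.0, a replicate block and leaving out each library. Promoter sequence came from RefSeq (GRCh38.p14), with windows for 8 of the 9 members.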

Additional observations from a re-analysis of the deposited data

Results flagged for a closer look

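A change with drug differed between the times or between the lines, by a test of the difference itself, for 5 values among the 9 genes. With 8CA in MV4-11, the log2 change of CDK12 was 0.21 higher at 24 h than at 8 h (edgeR adjusted p = 0.0437), and the call was lost in 7 of 15 other settings, each with 1 library left out. With 8CA in KG-1a, the change of LARP7 was 0.24 higher at 24 h (edgeR adjusted p = 0.0472), lost in 10 of 15. With 8AA in KG-1a, the change of HEXIM1 differed by -0.26 between 24 h and 8 h (edgeR adjusted p = 0.043), lost in 11 of 15. Between MV4-11 and KG-1a, the change of HEXIM1 with 8AA at 8 h differed by -0.31 (edgeR adjusted p = 0.0226), lost in 4 of 15, and it came to -0.20 without MV4-11 untreated replicate A. The change of LARP7 with 8AA at 24 h differed by -0.24 (edgeR adjusted p = 0.0313), lost in 3 of 15, and it came to -0.18 without KG-1a untreated replicate B.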

How the results depend on the processing

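With 2 libraries a group, the smallest change against untreated cells that passed among the 9 genes was 0.13 on the log2 scale (CCNT1), and ELL2 in MV4-11, at 73 counts in its lowest library, carried the widest errors. HEXIM1 and CDK12 with 8CA at 24 h in both lines, and HEXIM1 with 8AA at 8 h in KG-1a, kept their direction and their call in all settings tried. No called value changed sign. Values that did not pass changed sign in 173 cases, over 67 values. The causes were not tested.

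The count of the 9 genes past the threshold moved as follows. For 8AA against 8CA at 8 h in KG-1a it went from 1 to 2 without the filter on low counts and to 3 with the 6 libraries of that time, or in a fit without both 8AA libraries at 24 h (added after seeing the data). That last fit gave 1 instead of 0 for 8CA at 8 h in KG-1a. For 8AA at 24 h in KG-1a the count was 3 by library size alone and 2 by upper quartile scaling. For 8AA at 24 h in MV4-11 it was 1 without the filter, with the 6 libraries of that time and with the replicate block. For 8AA against 8CA in MV4-11 it was 3 by DESeq2 at 24 h and 0 with 6 libraries at 8 h. For the 24 h against the 8 h change, it was 2 with a minimum of 10 counts in each library or with the replicate block, and 0 by DESeq2 or without the filter, for 8AA in KG-1a. For 8CA in KG-1a it was 0 by DESeq2 or without the filter and 2 by upper quartile scaling. For 8CA in MV4-11 it was 2 without the filter and 3 with the replicate block. Between the lines with 8AA it was 2 at both times without the filter, or with a minimum of 10 counts in each library, and 2 by DESeq2 size factors, library size alone or upper quartile scaling at 24 h. Between untreated times it was 1 by DESeq2 size factors, the DESeq2 test, library size alone or upper quartile scaling in MV4-11, and 1 without the filter or with the replicate block in KG-1a. The level of CDK9 in untreated MV4-11 was 23.8 CPM per kb by library size alone. Of the 5 genes most like HEXIM1, 0 remained by Spearman rho.

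With 1 library left out in turn, the count against untreated cells at 24 h lay between 3 and 4 for 8CA in MV4-11, between 4 and 6 for 8CA in KG-1a and between 1 and 3 for 8AA in KG-1a. At 8 h it lay between 0 and 1 for either drug in MV4-11 and between 1 and 2 for 8AA in KG-1a. For 8AA against 8CA it lay between 2 and 4 in MV4-11 and 3 and 6 in KG-1a at 24 h, and between 0 and 1 in MV4-11 at 8 h. For the difference between the times it lay between 0 and 2 with 8CA in MV4-11, between 0 and 3 with 8AA in KG-1a and at 0 throughout with 8CA in KG-1a. Between the lines it lay between 0 and 1 with 8AA at 8 h and between 0 and 2 at 24 h, and for untreated MV4-11 between times it was 0 throughout.

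The replicate letters were not taken as pairs, since there are only 2 letters, no label says what they share, and the correlation of A minus B between groups of a line ran from -0.19 to 0.30. In MV4-11 at 8 h all 3 correlations were positive, at 0.22, 0.27 and 0.30, and there the block left the counts at 0 for 8CA, 1 for 8AA and 1 for 8AA against 8CA. With the letter as a replicate block, the 8CA counts at 24 h were 6 in MV4-11 and 8 in KG-1a, and HEXIM1 with 8AA at 24 h in MV4-11 came to -0.18 (edgeR adjusted p = 0.0291). Over all genes the block called more in MV4-11, 1976 against 1325 with 8CA at 8 h and 6197 against 5619 at 24 h. In KG-1a it called 6321 against 6021 with 8CA at 24 h. Between the lines it called fewer, 1497 against 1574 for 8CA at 24 h. With crossed letters, added after seeing the data, the count with 8AA at 24 h in KG-1a was 1 and that between untreated times in MV4-11 was 2.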
